A study of Mus musculus with 4 samples.

Results

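Mature miRNAs encoded at the imprinted Mest, H19, Igf2 and Gnas loci were examined in small RNA-seq libraries of mouse embryonic stem (ES) cells and of epiblast-like aggregates (ELA). The set was chosen by name and by locus, as both arms of mmu-miR-335, mmu-miR-675, mmu-miR-483, mmu-miR-296 and mmu-miR-298, and comprised 10 of the 1907 mature miRNAs listed. The cells were of the E14Tg2A line, a feeder-independent ES cell line of strain 129/Ola. ES cells were grown in fetal calf serum with leukemia inhibitory factor (LIF), called serum here, or had been switched for several passages to 2iL, a serum-free medium containing LIF, the MEK inhibitor PD0325901 and the GSK3 inhibitor CHIR99021. ELA were made by letting ES cells of either medium aggregate in suspension for 2 days in a chemically defined minimal medium lacking LIF, so that the medium name of an ELA library refers to the earlier culture. Each stage and medium was represented by 1 library, 4 in all, and each library was made from pooled RNA of 3 sets of experiments. Variation between experiments therefore could not be measured, and in such bulk samples fewer cells that make a miRNA and less of it per cell cannot be told apart.

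An imprinted gene is expressed mainly from the copy inherited from 1 parent. Mest, which encodes a hydrolase-like protein, and Igf2, a fetal growth factor, are expressed from the paternal copy, whereas H19, a long non-coding RNA next to Igf2, is expressed from the maternal copy. The Gnas locus produces several overlapping transcripts, including the antisense transcript Nespas from the paternal copy. A miRNA hairpin yields a 5p and a 3p arm, and the arm that is loaded into the RNA-induced silencing complex pairs with target mRNAs mainly through its seed, bases 2 to 8. The levels below are in RPM, the number of reads scaled to a library total of 1000000, among the reads assigned to listed miRNAs, so each is a share of miRNA reads and not an amount per cell.

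The arms of all 5 hairpins are shown with the seed in capitals, since the results contrast arms of the same hairpin that carry unrelated seeds. All 10 sequences were found in RefSeq and each had exactly 1 perfect match in the mm9 genome, the build used for mapping.
mmu-miR-335-5p: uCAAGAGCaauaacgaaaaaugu
mmu-miR-335-3p: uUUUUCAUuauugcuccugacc
mmu-miR-675-5p: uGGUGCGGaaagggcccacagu
mmu-miR-675-3p: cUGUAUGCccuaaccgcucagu
mmu-miR-483-5p: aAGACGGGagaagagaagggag
mmu-miR-483-3p: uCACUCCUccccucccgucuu
mmu-miR-296-5p: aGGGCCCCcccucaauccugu
mmu-miR-296-3p: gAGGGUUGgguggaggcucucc
mmu-miR-298-5p: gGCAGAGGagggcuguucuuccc
mmu-miR-298-3p: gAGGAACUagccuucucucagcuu
No seed occurred in another of the 1623 listed miRNAs that had a RefSeq sequence, the other members included. The arms of miR-335 were the poorest in G and C, with 30.4% in miR-335-5p and 36.4% in miR-335-3p, and miR-296-3p was the richest with 68.2%. The median was 47.8% over the 491 tested miRNAs with a sequence.

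In mm9, Mir335 lies at chr6:30691299-30691396 on the plus strand, within an intron of Mest and on the strand of that gene. Mir675 lies at chr7:149762969-149763052 on the minus strand, within an exon of the non-coding H19 transcript. Mir483 lies at chr7:149840829-149840901 on the minus strand, within an intron of Igf2 and 77776 bp from Mir675. Mir296 at chr2:174092548-174092626 and Mir298 at chr2:174093005-174093086 are on the minus strand and separated by 378 bp. Neither overlapped a longer gene in the annotation used. The nearest gene on their strand was Nespas, 13651 bp from Mir298, and Gnas itself lay 16734 bp away on the opposite strand.

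The libraries held 8056984 miRNA reads for ES serum and 2767016 for ES 2iL, and 4309257 and 587363 for the corresponding ELA libraries (serum first, as in all such pairs here). Detection was set at 3 reads, which corresponded to 0.372, 1.08, 0.696 and 5.11 RPM in that order. The cluster of miR-290 to miR-295, which is abundant in ES cells, took 8.61% of reads in ES serum against 18.3% in ES 2iL, and 5.55% and 14.1% in the corresponding ELA libraries. The cluster of miR-302 and miR-367, a marker of primed pluripotent cells, took 0.595%, 0.00784%, 3.73% and 0.708%, and was thus higher in ELA than in ES of the same medium and higher in serum than in 2iL of the same stage. One label field exchanges ES 2iL and ELA serum relative to the titles and column names followed here. Under that grouping the stage and medium differences given below would exchange places. The miR-302 and miR-367 share would be lower in ELA than in ES in both media, at 0.00784% against 0.595% in serum and at 0.708% against 3.73% in 2iL. The miR-290 to miR-295 share would be higher in ELA, at 18.3% against 8.61% in serum and at 14.1% against 5.55% in 2iL.

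The members fell into an abundant pair, an intermediate group and a group at or near 0. Together they made up 1.06% of miRNA reads in ES serum against 3.18% in ES 2iL, and 0.759% and 1.32% in the corresponding ELA libraries. Most of these reads came from only 2 arms, miR-298-5p and miR-335-3p. miR-298-5p contributed 52.6% of the members' reads in ES serum against 84.5% in ES 2iL, and 55.8% and 49.6% in the corresponding ELA libraries, and miR-335-3p contributed 44.2%, 12.1%, 38.1% and 41.7%. Of the 10 members, 6 had at least 10 reads in at least 2 libraries and were tested with 593 other miRNAs, and the 4 arms of miR-675 and miR-483 were not.

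**Figure D1:**
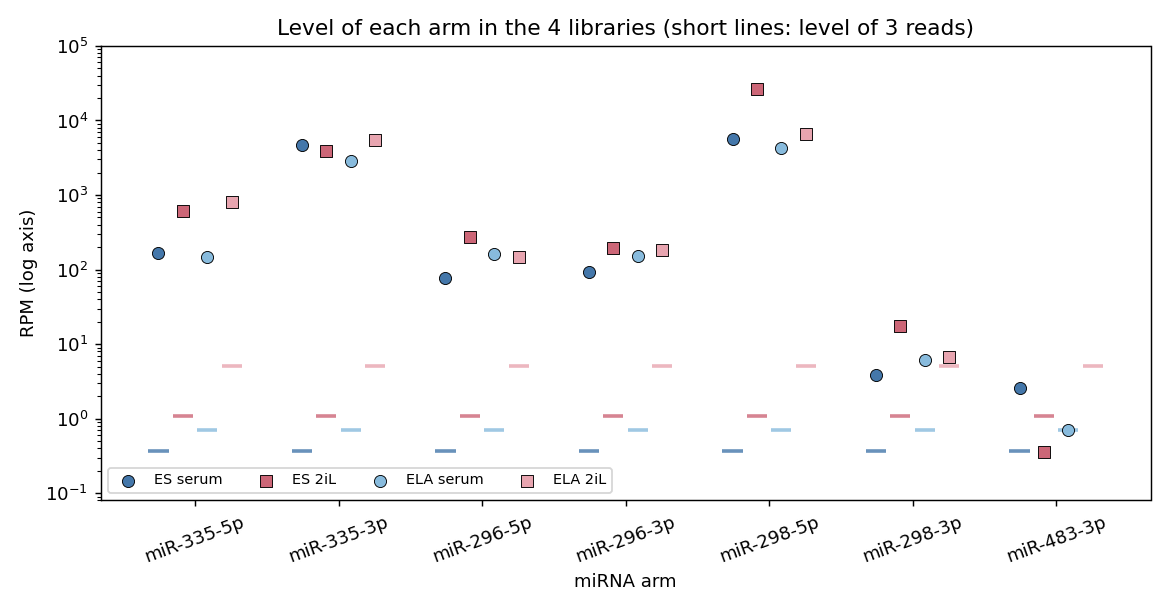
Level of each arm in the 4 libraries, in RPM on a log axis, with 1 point per library and a short line at the level of 3 reads in that library. The points of miR-335-5p separate by medium, whereas the ES 2iL point of miR-298-5p, at 26836 RPM, stands above its other 3; both arms of miR-675 and miR-483-5p are not drawn, nor is miR-483-3p in ELA 2iL, where it had no read.

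miR-335-5p, the less abundant arm of the Mest hairpin, was higher in 2iL than in serum at both stages. Its level was 166 RPM in ES serum against 612 in ES 2iL, and 146 and 812 in the corresponding ELA libraries, from 1340, 1693, 631 and 477 reads. The 2iL libraries did not overlap the serum libraries in RPM, which also held for miR-296-3p, miR-298-5p and miR-298-3p. How often this occurred among all tested miRNAs was not counted. The ES 2iL level was 3.68-fold that of ES serum, with an exact 95% counting interval of 3.42 to 3.96, and the ELA 2iL level was 5.55-fold that of ELA serum (4.91 to 6.26). Between the stages the differences were smaller and of opposite sign, at −0.18 on the log2 scale in serum (−0.32 to −0.05), which turned to 0.012 with DESeq2 size factors, and 0.41 in 2iL (0.26 to 0.56). The order of the 4 libraries was ELA 2iL, ES 2iL, ES serum and ELA serum, and each step in RPM exceeded counting error, although the last was only 1.14-fold (1.03 to 1.25).

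Over both stages, the medium difference of miR-335-5p was 2.17 ± 0.46 (SE) on log2(RPM + 1), with an unadjusted p of 0.00575 and an adjusted p of 0.108 in limma. It thus did not pass the threshold of 0.05 in that fit. Over 8 alternative settings adjusted p ranged from 0.00317 to 0.159, and 5 of them passed the threshold. Among those 5 were limma fits with no filter and with totals that omit the 5 most abundant miRNAs. Over all miRNAs their smallest adjusted p for medium was 1.0e-31 and 1.6e-25. With 1 residual degree of freedom, values this small rest on spread borrowed across miRNAs, so the count of passing settings does not stand for replication. The edgeR quasi-likelihood test on the recovered reads gave an adjusted p of 0.0320. limma called 0% of the 599 tested miRNAs for medium and edgeR called 10.7%. Without any adjustment, 176 miRNAs had a limma p under 0.05 for medium. In RPM the median of the 599 miRNAs was itself 0.32 higher in 2iL and differed by −0.22 for stage, and relative to that median miR-335-5p was 1.85 higher in 2iL. For stage its difference was 0.11 ± 0.46, with a limma adjusted p of 0.906, and limma called 0% of all tested miRNAs against 6.51% in edgeR. For stage, 125 miRNAs had an unadjusted limma p under 0.05.

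miR-335-3p, the abundant arm of the same hairpin, showed no such separation by medium. It was at 4681 RPM in ES serum against 3838 in ES 2iL, and 2886 and 5523 in the corresponding ELA libraries, so that the serum and 2iL libraries overlapped. From ES to ELA its level differed by −0.70 on the log2 scale in serum (−0.73 to −0.67) and by 0.53 in 2iL (0.47 to 0.58). Between media, the 2iL level differed from serum by −0.29 in ES (−0.32 to −0.26) and by 0.94 in ELA (0.88 to 0.99). Under the 3 other scalings the ES value was between −0.78 and −0.57, and the ELA value was 0.59 with TMM and 0.57 with DESeq2 size factors. All 3 steps in the order ELA 2iL, ES serum, ES 2iL and ELA serum exceeded counting error in RPM, although ES 2iL was the lowest with TMM and with DESeq2 size factors, and the whole range in RPM was 1.91-fold (1.84 to 1.99). Averaged over the other factor, the differences were −0.09 ± 0.52 for stage and 0.32 ± 0.52 for medium, with limma adjusted p of 0.936 and 0.693. Both change sign under other scalings, and relative to the median of all tested miRNAs they were 0.14 and 0.00.

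The 2 arms of miR-335 were therefore present in different proportions in the 2 media. The 5p arm gave 3.43% of the hairpin's reads in ES serum (Wilson 95% interval 3.26 to 3.62), 13.8% in ES 2iL (13.2 to 14.4), 4.83% in ELA serum (4.47 to 5.21) and 12.8% in ELA 2iL (11.8 to 13.9). Both 2iL shares lay above both serum shares, and the intervals of the 2 media, which cover counting error only, did not overlap. How many other hairpins separate by medium in this way was not counted. This share is formed within a library and does not depend on how libraries are scaled. On log2(RPM + 1), the ratio of 5p to 3p was 4.47-fold higher in 2iL than in serum in ES, and 2.88-fold higher in ELA. Averaged over the stages on the same scale, the log2 change of this ratio was 1.84.

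Changes of arm ratio of this size were not rare in these libraries. Among the 196 hairpins with both arms tested, 33.7% had a change of at least 1 between media and 24 hairpins, 12.2%, had one at least as large as that of miR-335. Where every library had at least 100 reads on each arm, a background chosen after seeing the data that left 28 hairpins, 4 changed at least as much as miR-335, itself included. Between stages, the miR-335 ratio differed by 0.20, and 16.8% of the 196 hairpins changed by at least 1. The reads of both arms summed to 4847 RPM in ES serum against 4450 in ES 2iL, and 3033 and 6335 in the corresponding ELA libraries. The summed level was 1.09-fold lower in 2iL than in serum in ES and 2.09-fold higher in ELA.

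**Figure D2:**
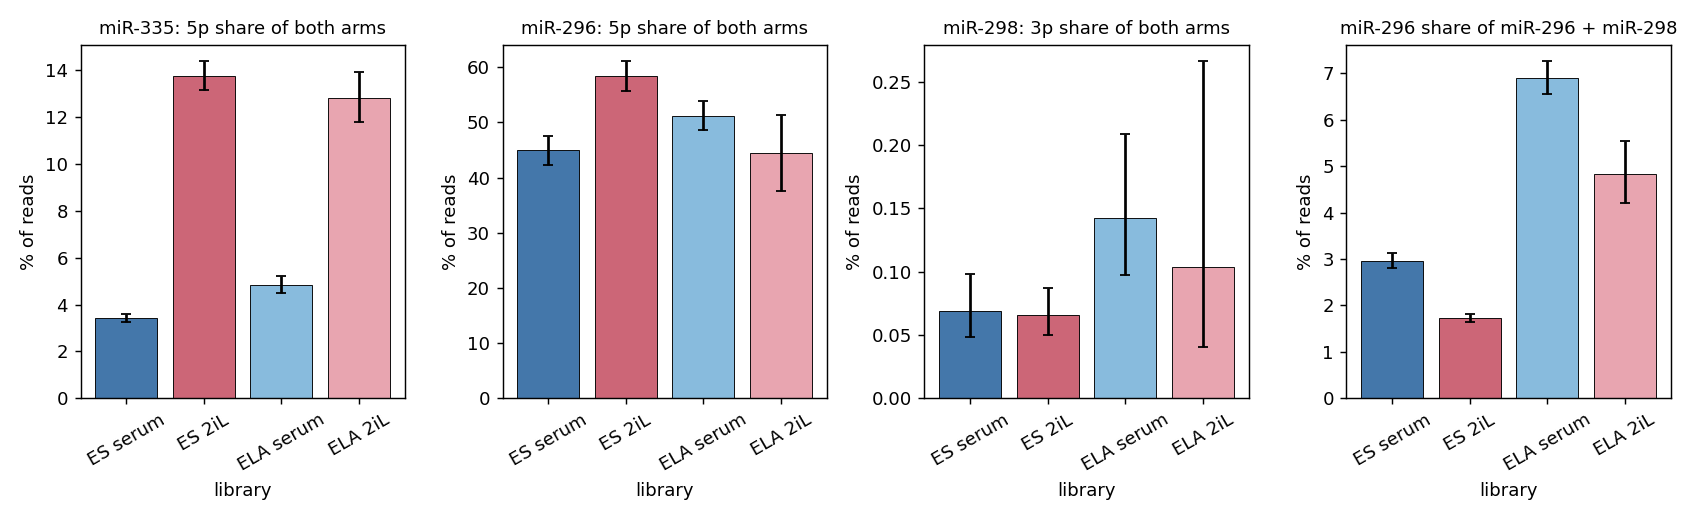
Share of reads, in percent with Wilson 95% intervals as bars, of the 5p arm of miR-335, the 5p arm of miR-296, the 3p arm of miR-298, and miR-296 among the reads of miR-296 and miR-298, with 1 bar per library. The 5p share of miR-335 lies at 3.43% and 4.83% in the serum libraries and at 13.8% and 12.8% in the 2iL libraries; the axes differ between panels and all start at 0.

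miR-298-5p, from the Gnas locus, was the most abundant member in every library and stood apart in ES 2iL. It was at 5576 RPM in ES serum against 26836 in ES 2iL, and 4232 and 6568 in the corresponding ELA libraries, and ranked 26th, 7th, 35th and 27th among the miRNAs of those libraries. The ES 2iL level was 4.81-fold that of ES serum (4.76 to 4.87) and 4.09-fold that of ELA 2iL (3.96 to 4.22). The other 3 libraries lay much closer, with ELA 2iL 1.55-fold above ELA serum (1.50 to 1.61) and ES serum 1.32-fold above ELA serum (1.30 to 1.34). With DESeq2 size factors, the ELA difference between media was 0.27 on the log2 scale against 0.63 in RPM. Each step in the order ES 2iL, ELA 2iL, ES serum and ELA serum exceeded counting error in RPM, and with TMM ELA 2iL and ES serum exchanged places by 0.0061 on the log2 scale. In the additive fit the stage difference was −1.21 ± 0.57, with a limma adjusted p of 0.283, and the medium difference was 1.45 ± 0.57, with an adjusted p of 0.177. Neither passed 0.05 under any alternative (0.219 to 0.358 for stage, 0.0855 to 0.296 for medium). Relative to the median of all tested miRNAs the differences were −0.99 and 1.13.

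miR-298-3p, the other arm, was nearly absent, at 3.85 and 17.7 RPM in ES of serum and 2iL and at 6.03 and 6.81 RPM in ELA, from 31, 49, 26 and 4 reads. It was also highest in ES 2iL, 4.60-fold above ES serum (2.88 to 7.47), but no neighbouring pair in the order of its levels was separated beyond counting error. The 3p arm gave 0.0690%, 0.0659%, 0.142% and 0.104% of the hairpin's reads in the same order. The ELA serum share, with an interval of 0.0972 to 0.209, lay above that of ES 2iL (0.0499 to 0.0872), and its interval overlapped slightly with that of ES serum (0.0486 to 0.0979). In the additive fit, miR-298-3p differed by −0.36 ± 0.60 for stage and 1.05 ± 0.60 for medium, with limma adjusted p of 0.747 and 0.308, and by −0.14 and 0.73 relative to the median of all tested miRNAs.

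The neighbouring hairpin miR-296 gave far fewer reads and used both arms at similar levels. miR-296-5p was at 76.7 RPM in ES serum against 276 in ES 2iL, and 161 and 148 in the corresponding ELA libraries, and miR-296-3p at 94.0, 197, 153 and 186. Both arms were lowest in ES serum in RPM and under the 3 other scalings. miR-296-5p was highest in ES 2iL under all of them, whereas miR-296-3p was highest in ES 2iL only in RPM, in ELA serum with TMM and DESeq2 size factors, and in ELA 2iL with totals that omit the 5 most abundant miRNAs. miR-296-5p was 3.60-fold higher in 2iL than in serum in ES (3.23 to 4.01), while in ELA the ratio of 2iL to serum was 0.921 with an interval that included 1 (0.728 to 1.15). On the log2 scale that ELA value was −0.12 in RPM, −0.47 with TMM and −0.48 with DESeq2 size factors, the last 2 outside the RPM interval. From ES to ELA, it was 2.10-fold higher in serum (1.88 to 2.34) and 1.86-fold lower in 2iL (1.49 to 2.35). These opposite signs left an average stage difference of 0.08 ± 0.62 and a medium difference of 0.86 ± 0.62, with limma adjusted p of 0.946 and 0.404, and they were 0.31 and 0.54 relative to the median of all tested miRNAs.

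miR-296-3p differed by less. It was 2.09-fold higher in 2iL than in serum in ES (1.87 to 2.34) and 1.63-fold higher in ELA than in ES in serum (1.46 to 1.81). The remaining ratios were not separated from 1 by counting, at 1.21 for 2iL over serum in ELA (0.982 to 1.49) and 0.944 for ELA over ES in 2iL (0.761 to 1.16). Both turned under other scalings: the first, 0.28 on the log2 scale, became −0.070 with TMM and −0.083 with DESeq2 size factors, and the second, −0.083, became 0.165, 0.147 and 0.164 with TMM, DESeq2 size factors and totals without the 5 most abundant. In the order of its levels in RPM, ES 2iL was therefore not separated from ELA 2iL by counting, nor ELA 2iL from ELA serum. The averaged differences were 0.31 ± 0.47 for stage and 0.67 ± 0.47 for medium, with limma adjusted p of 0.736 and 0.394. Relative to the median of all tested miRNAs they were 0.53 and 0.35, and with TMM the medium difference was 0.25. The 5p arm of miR-296 gave 44.9% of reads in ES serum (42.3 to 47.6), 58.4% in ES 2iL (55.7 to 61.1), 51.3% in ELA serum (48.6 to 53.9) and 44.4% in ELA 2iL (37.6 to 51.4). The 3p arm was thus the more abundant in ES serum and the 5p arm in ES 2iL, while both ELA intervals included equal use.

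Although Mir296 and Mir298 are 378 bp apart on the same strand, their reads were unequal and their ratio differed between libraries. miR-298 gave 32.7 reads per read of miR-296 in ES serum against 56.8 in ES 2iL, and 13.5 and 19.7 in the corresponding ELA libraries. As a share of the reads of both hairpins, miR-298 held 97.0% (96.9 to 97.2), 98.3% (98.2 to 98.4), 93.1% (92.7 to 93.5) and 95.2% (94.5 to 95.8). These 4 intervals, which cover counting error only, did not overlap. How often the ratio of other neighbouring hairpins differs this much between libraries was not examined. The share was lower in ELA than in ES of the same medium and higher in 2iL than in serum of the same stage, and as a ratio within a library it does not depend on the scaling. Reads of different miRNAs also depend on how well each is captured in the library, and the part of this in the size of the ratio was not tested.

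The hairpins of the H19 and Igf2 genes gave almost no reads. miR-675-5p and miR-675-3p, from the H19 exon, had 0 reads in all 4 libraries, which allows up to 0.372 RPM in ES serum against 1.08 in ES 2iL, and 0.696 and 5.11 in the corresponding ELA libraries. miR-483-5p, from Igf2, had 3 reads in ES serum, equal to 0.372 RPM, and 0 in the other libraries. miR-483-3p had 21 reads in ES serum against 1 in ES 2iL, and 3 and 0 in the corresponding ELA libraries, equal to 2.61, 0.361, 0.696 and 0 RPM. Its ES serum level was 3.74-fold that of ELA serum (1.12 to 19.6) and 7.21-fold that of ES 2iL (1.16 to 298.3), so the size of these differences was poorly determined. In ELA 2iL, the shallowest library, the level it had in ES serum would lie below the limit of detection.

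**Figure D3:**
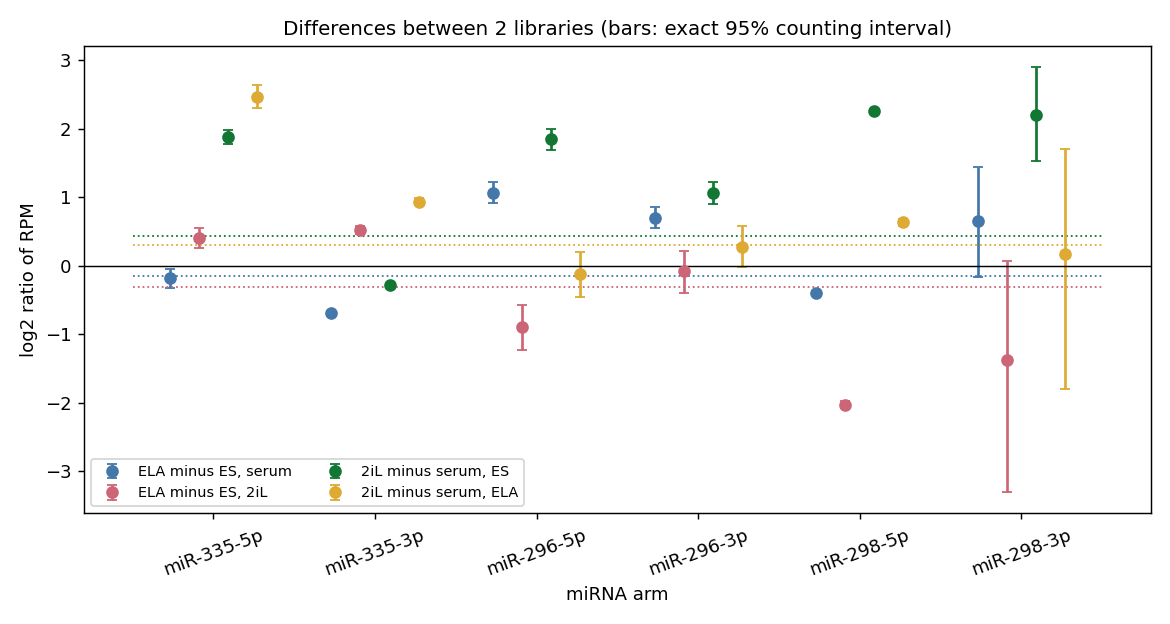
Log2 ratio of RPM between pairs of libraries for the 6 tested arms, with exact 95% counting intervals as bars and, dotted in the same colours, the median of all 599 tested miRNAs for that pair. The 2iL minus serum points of miR-335-5p are at 1.88 and 2.47, and the ELA minus ES points of miR-296-5p and miR-335-3p lie on opposite sides of 0 in serum and in 2iL.

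Counted over the 6 tested members with a difference of at least 1 on log2(RPM + 1), the largest count was for 2iL against serum in ES, where 5 were higher, all but miR-335-3p, and 30.7% of all tested miRNAs were. The count was 4 under each of the 3 other scalings, where the log2 ratio of miR-296-3p without a pseudocount was between 0.57 and 0.79. The members' median was 1.85 and that of all tested miRNAs 0.43. In ELA only miR-335-5p was higher by that size, against 23.9% of all tested, and the medians were 0.46 and 0.30. Averaged over the stages, 3 members were higher in 2iL, miR-335-5p, miR-298-5p and miR-298-3p, and 0 were lower, against 24.5% and 15.7% of all tested. The 3 became 2 under the other 3 scalings and with a pseudocount of 5 RPM, where miR-298-3p was between 0.68 and 0.94.

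Between the stages the members had no common direction. In serum, miR-296-5p was higher in ELA and no member was lower by at least 1, against 9.18% and 17.2% of all tested miRNAs. That count became 0 with totals that omit the 5 most abundant miRNAs. In 2iL, miR-298-5p and miR-298-3p were lower in ELA and none was higher, against 29.9% and 19% of all tested, and miR-298-3p rests there on 4 reads. Averaged over the media, 0 members were higher and 1, miR-298-5p, was lower, against 11.9% and 21.7%. The median stage difference was −0.0020 over the members and −0.22 over all tested miRNAs. As the 6 tested arms come from 3 hairpins at 2 loci, they are not independent of each other.

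**Figure D4:**
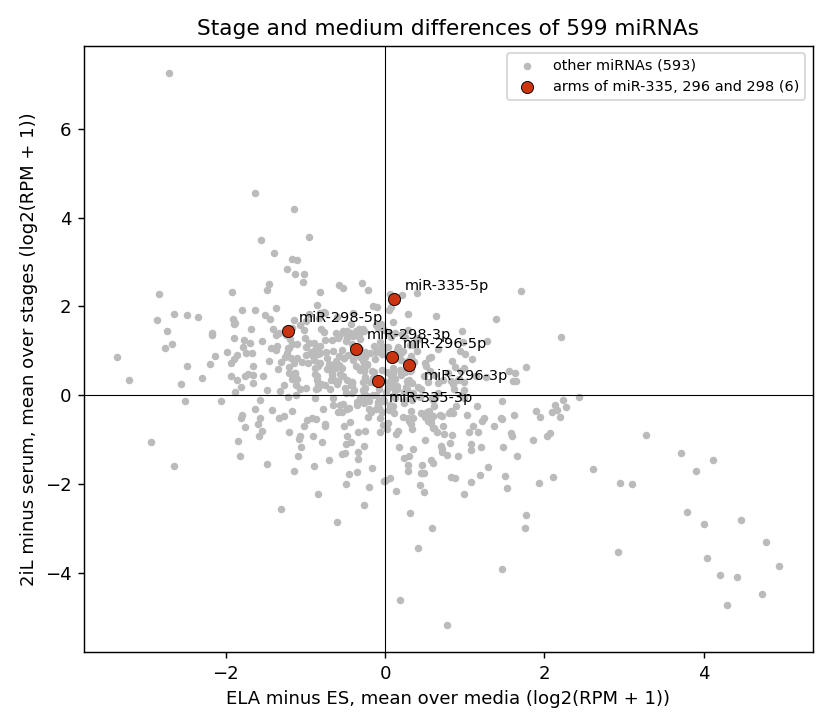
Stage difference (ELA minus ES, averaged over the media) against medium difference (2iL minus serum, averaged over the stages) on log2(RPM + 1), with 1 point for each of 599 miRNAs and the 6 tested arms marked. All 6, from 3 hairpins, lie above 0 for medium, from 0.32 for miR-335-3p to 2.17 for miR-335-5p, and within the cloud of the other miRNAs. The median of all 599 for medium is itself 0.32. With TMM and with DESeq2 size factors miR-335-3p lies below 0.

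The miRNAs whose pattern over the 4 libraries was nearest to that of the arm with the higher mean RPM over the 4 libraries, for each tested hairpin, were found by the distance between centred log2(RPM + 1) values. For miR-335-3p these were mmu-miR-320-3p at a distance of 0.108, mmu-miR-134-3p at 0.270 and mmu-miR-465c-5p at 0.277, where the median over all tested miRNAs was 1.48. miR-320-3p was at 245 and 193 RPM in ES serum and 2iL and at 138 and 266 RPM in ELA. The nearest to miR-298-5p were mmu-miR-328-3p at 0.252, mmu-miR-1839-3p at 0.386 and mmu-miR-423-3p at 0.438 (median 1.94). miR-328-3p was at 24.1, 143, 19.3 and 35.8 RPM in the same order, and was also highest in ES 2iL. The nearest to miR-296-5p were mmu-miR-33-5p at 0.366, mmu-miR-29c-3p at 0.453 and its neighbour mmu-miR-298-3p at 0.490 (median 1.74). With 4 libraries, such likeness is a description only.

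The imprinted Dlk1-Dio3 region, which holds a large cluster of miRNAs expressed from the maternal copy, was examined beside them. Its 106 listed arms, of which 88 were tested, took 29.7% of miRNA reads in ES serum against 10.7% in ES 2iL. In the corresponding ELA libraries they took 35.02% and 18.6%. Their summed share was thus lower in 2iL than in serum at each stage, whereas that of the Mest, H19, Igf2 and Gnas arms was higher. In ES the rise of the latter came mainly from miR-298-5p, at 5576 RPM in serum and 26836 in 2iL, with miR-296 also higher. The summed miR-335 arms were 1.09-fold lower in 2iL in ES and 2.09-fold higher in ELA. miR-675 had 0 reads, and miR-483 had 24 reads in ES serum and 1 in ES 2iL. The most abundant Dlk1-Dio3 arm, mmu-miR-127-3p, was at 174652, 40028, 185924 and 71252 RPM. For medium, 8 of the 88 arms were higher and 20 lower by at least 1, against 24.5% and 15.7% of all tested miRNAs, and their median was −0.32 against 0.32. For stage, 13 were higher and 0 lower, against 11.9% and 21.7%, and their median was 0.44 against −0.22. limma called 0 of them in either comparison, and edgeR called 11 lower in 2iL, where it called 10.7% of all tested in either direction, and 1 higher in ELA, where it called 6.51%. Because RPM values are shares of 1 total, a region that takes this much of a library moves the RPM of all other miRNAs, and its part in the members' differences was not tested beyond the scalings compared.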

How the data were processed

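Small RNA-seq was analysed for 4 libraries (ES serum, ES 2iL, ELA serum, ELA 2iL), grouped by title and column name, with no replicate libraries. The authors demultiplexed 50-bp single reads with CASAVA 1.8, trimmed adaptors with Trimmomatic, mapped with Bowtie to mm9, counted reads per mature miRNA (miRBase 20) using featureCounts, and deposited the table as RPM. Other versions and the handling of multiply mapped reads are not given in the sources used here. Whole reads were recovered from the RPM steps (100% of values within 0.02 reads of a whole number), and 0 columns were left out.

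The 599 of 1907 miRNAs that reached 10 reads in 2 or more libraries were fitted with limma 3.58.1 in R 4.3.3 on log2(RPM + 1), with additive terms for stage and medium, which left 1 residual degree of freedom. A difference between stages that depends on medium thus enters the error, and p-values rest on spread borrowed across miRNAs. Adjusted p is Benjamini-Hochberg over the 599, with a threshold of 0.05. Alternatives were edgeR 4.0.16 (quasi-likelihood) and DESeq2 1.42.0 on the reads, other scalings, pseudocounts and no filter. Ratios of 2 libraries carry exact Clopper-Pearson intervals and shares Wilson intervals, both at 95% and for counting error only, as reads carry no molecular identifiers. Folds within such pairs are of RPM without a pseudocount. Detection was set at 3 reads.

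All 10 members were named, with the 3 nearest patterns of the arm with the higher mean RPM of each tested hairpin. Members and lists were chosen with earlier results of these data known. Hairpin positions came from GENCODE vM1 on mm9 and mature sequences from RefSeq (its table is on GRCm38.p6, from which only sequences were taken).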

Additional observations from a re-analysis of the deposited data

Results flagged for a closer look

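For 5 of the 6 tested arms the sign of a difference in RPM depended on the other factor, and for miR-335-5p and miR-296-3p that rested on the scaling. These dependences were not tested, since each value compares 1 library with 1 and the additive fit takes them as error. The ELA minus ES difference of miR-335-5p was −0.18 in serum and 0.41 in 2iL (log2 of RPM), a gap of 0.59, but the serum value was 0.012 with DESeq2 size factors. For miR-335-3p it was −0.70 in serum but 0.53 in 2iL, and its 2iL minus serum difference was −0.29 in ES and 0.94 in ELA, a gap of 1.22 in each case, and each of these values excluded 0 by counting. For miR-296-5p the ELA minus ES difference was 1.07 for serum but −0.90 for 2iL, and the 2iL minus serum difference was 1.85 in ES and −0.12 in ELA, a gap of −1.97 in each case, where the ELA value included 0 in RPM and was −0.47 with TMM and −0.48 with DESeq2 size factors. For miR-296-3p, the stage difference was 0.70 in serum and −0.08 in 2iL, a gap of −0.79, and the 2iL value included 0 and was 0.165, 0.147 and 0.164, the sign it had in serum, with TMM, DESeq2 size factors and totals without the 5 most abundant miRNAs. For miR-298-3p it was 0.65 in serum and −1.38 in 2iL, a gap of −2.03, with both intervals including 0, and the ELA 2iL value rests on 4 reads. ELA 2iL, the shallowest library with 587363 reads, enters each of these gaps.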

How the results depend on the processing

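Over the 8 alternatives to the limma fit of the 6 members, 82 of 96 values kept their direction and side of the threshold, 5 passed it newly and 9 changed sign. All 9 were of miR-335-3p: its stage difference became 0.091 with TMM, 0.13 with DESeq2 size factors, 0.0014 with totals that omit the 5 most abundant miRNAs, 0.091 in edgeR and 0.13 in DESeq2, and its medium difference became −0.10 with TMM, −0.055 with DESeq2 size factors, −0.10 in edgeR and −0.055 in DESeq2. The 5 were of miR-335-5p for medium, the 1 member called with a pseudocount of 5 RPM, with no filter, with totals without the 5 most abundant, in edgeR and in DESeq2, where the limma fit called 0. Over all tested miRNAs the limma fit called 0 for either contrast, as it did with a pseudocount of 0.25 RPM and with DESeq2 size factors, whereas for stage 9 were called with a pseudocount of 5 RPM, 99 with no filter (over 1202 miRNAs in place of 599), 45 with TMM, 89 without the 5 most abundant, 39 in edgeR and 50 in DESeq2, and for medium 38, 130, 74, 109, 64 and 74 in the same order. With a pseudocount of 5 RPM 23 of the medium calls were higher and 15 lower, and with TMM 19 were higher and 55 lower. The median of all miRNAs for medium moved from 0.32 in RPM to −0.07 with TMM, and for stage from −0.22 to −0.07. The cause of these changes was not tested.

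The differences between 2 libraries gave 96 values under another scaling or pseudocount. Of these values, 48 stayed within the counting interval in RPM with their sign kept, 40 moved outside it with their sign kept, and 8 changed sign. These were of 4 differences: miR-335-5p, ELA minus ES in serum (−0.18 to 0.012 with DESeq2 size factors), miR-296-3p, 2iL minus serum in ELA (0.28 to −0.070 with TMM and −0.083 with DESeq2 size factors) and ELA minus ES in 2iL (−0.083 to 0.165, 0.147 and 0.164 with TMM, DESeq2 size factors and totals without the 5 most abundant), and miR-298-3p, 2iL minus serum in ELA (0.17 to −0.175 with TMM and −0.188 with DESeq2 size factors). The 1 member higher in ELA than ES in serum (miR-296-5p) became 0 without the 5 most abundant, and the 2 members lower in 2iL became 1 with a pseudocount of 5 RPM. The 5 members higher in 2iL in ES became 4 under each other scaling, and the 3 higher for medium became 2. Leaving out a library leaves no residual degree of freedom, so no such fit was made, and the values within each medium and stage stand in its place. Pairing by replicate was not possible because the labels give 1 library per group and no shared replicate numbers. With medium in the additive fit, its stage term already compares each ELA library with the ES library of the same medium. Depth limits mainly ELA 2iL, where 3 reads are 5.11 RPM.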
